A study of Mus musculus with 8 samples.

Results

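Keratins are the intermediate filament proteins of epithelial cells, and 10 of their genes were followed here in mpkCCD cells: Krt7, Krt8, Krt18, Krt19, Krt20 and Krt23 of simple and transitional epithelia, Krt5, Krt14 and Krt17 of basal and stratified epithelia, and Krt80. They were taken by gene symbol from the 55414 genes of the deposited table, and each symbol had 1 row. The mpkCCD line is a re-cloned line that descends from cortical collecting ducts of SV-PK/Tag transgenic mice, so a change described below is that of 1 clone. All 8 libraries came from cells kept in 0.1 nM dDAVP, a V2 receptor agonist. In 4 of them 50 nM tolvaptan, a V2 receptor antagonist, was also present for 24 h, and the other 4 received its vehicle.

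Keratins fall into 2 types. Type I (acidic) and type II (basic) keratins build filaments only as pairs of unlike type, and in simple epithelia the founding pair is the type II keratin K8 with the type I keratin K18. K7 and K19 join them in ducts, K20 is known from the intestine and from the superficial cells of the urothelium, and K5 with K14 mark the basal layer of stratified epithelia. Of the members here, 6 are of type I (Krt14, Krt17, Krt18, Krt19, Krt20 and Krt23) and 4 are of type II (Krt5, Krt7, Krt8 and Krt80).

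The values are TPM (transcript abundance scaled to the same total in each library), which are corrected for transcript length, so levels of different genes can be set side by side. The number of reads behind them is not known. Groups were compared on the scale log2(TPM + 1) by limma over the 9943 genes with more than 10 TPM in at least 1 library, and "fell" or "rose" means a Benjamini-Hochberg adjusted p under 0.05 over all of them. The labels do not say whether the libraries are separate cultures, so a p-value here measures only how libraries vary, which may be technical. In bulk RNA, fewer cells of a kind and less mRNA per cell cannot be told apart. As a check of the labels, Aqp2, the apical water channel gene that V2 receptor signalling sustains, was 11.2-fold lower with tolvaptan. Tolvaptan replicate 4 stood apart from its group. It was the highest or lowest tolvaptan library for 74.7% of the genes tested, against 29.7% to 52.8% for the other tolvaptan libraries.

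With dDAVP alone the keratin mRNAs ran from among the most abundant of the cell to values at or near 0. Krt18 led with a mean of 5039 TPM and was the 3rd most abundant of all genes in the table. Krt19 and Krt8 followed at 1457 and 1442 TPM, and these neighbours could not be ordered, since their libraries covered 1413 to 1483 and 1408 to 1486 TPM. Krt7 came next at 537 TPM, then Krt20 at 432, Krt23 at 60.7 and Krt80 at 7.74 TPM, with no overlap of libraries between neighbours in this order. Krt17 lay at 0.240 TPM, and Krt5 and Krt14 at 0.0425 and 0.0375 TPM. With tolvaptan, the libraries of Krt19 and Krt8 no longer overlapped. Krt8, at 1043 to 1286 TPM, then lay above Krt19, at 782 to 1030.2 TPM.

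**Figure D1:**
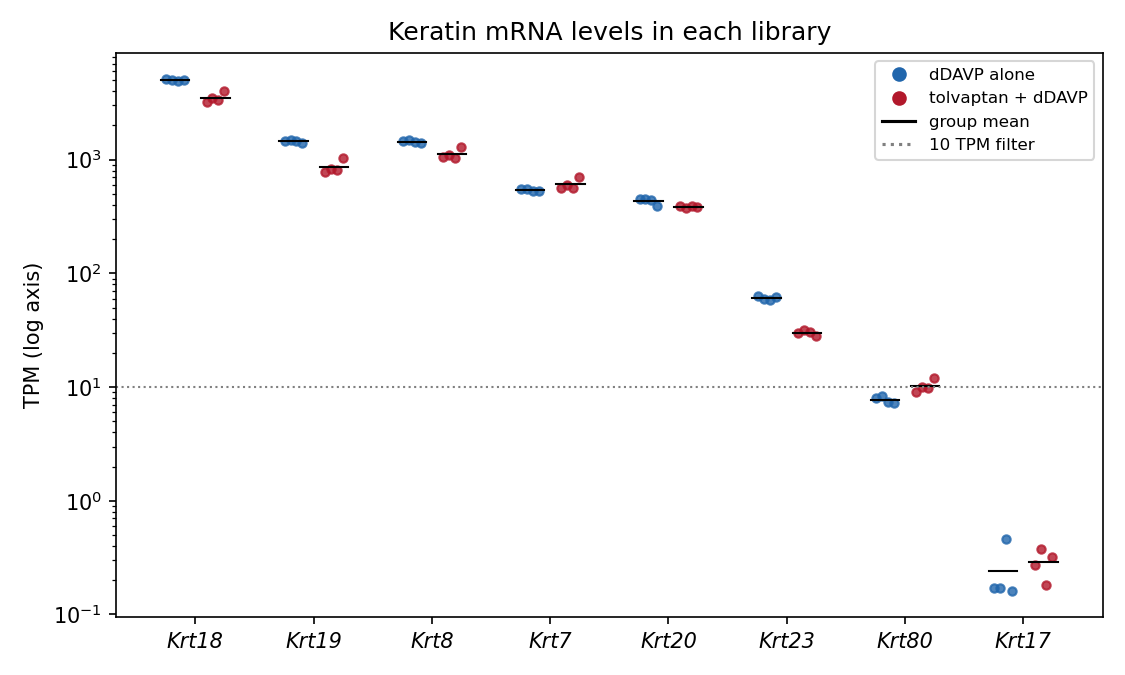
TPM (log axis) of the 8 keratin genes with a value above 0 in every library, in the 4 libraries with dDAVP alone (blue) and the 4 with tolvaptan plus dDAVP (red), black lines being group means and the dotted line the filter of 10 TPM. Krt18 lies near 5039 TPM with dDAVP alone and Krt17 under 1 TPM in all libraries, while Krt80 crosses the filter in 2 tolvaptan libraries only.

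Of the 10 members, 7 passed the filter, and 5 of them fell: Krt23, Krt19, Krt18, Krt8 and Krt20. Over all genes tested, 6.1% fell and 10% rose (16.1% in either direction). With the libraries centred on a common median 825 genes fell and 576 rose in place of 607 and 994, and the 5 members that fell were the same. Krt7 and Krt80 were higher in every tolvaptan library than in any dDAVP library but did not pass the adjusted threshold, and no member rose. The 3 members under the filter were Krt5, Krt14 and Krt17. Krt80 entered the comparison only through the tolvaptan group, where 2 libraries exceeded 10 TPM, against 0 libraries with dDAVP alone. Krt80 is therefore left out of the next count. For each other member that passed, the groups did not overlap, which was so for 23.1% of all genes tested (7.99% lower and 15.1% higher with tolvaptan). The exact permutation test (2-sided) gave p = 0.0286 for each of them, the smallest value that 4 libraries against 4 allow. Groups that do not overlap always give this value, so it adds no support to the separation.

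Krt18 (ENSMUSG00000023043) encodes the type I partner of keratin 8. With dDAVP alone its libraries held 5160.4, 5065, 4955 and 4978 TPM, and with tolvaptan 3225, 3460, 3377 and 4006 TPM. The groups did not overlap, and tolvaptan replicate 4 was nearest to the dDAVP libraries. The mean was 30.2% lower (5039 ± 93.6 and 3517 ± 341 TPM, SD over 4 libraries). On the log2 scale the difference was -0.52 (SE 0.06, limma adjusted p = 0.000251), and the gene went from rank 3 to rank 6 among all genes.

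Krt8 (ENSMUSG00000049382), its type II partner, had a smaller fold change, a difference between the genes that was not tested. It stood at 1457, 1486, 1418 and 1408 TPM with dDAVP alone and at 1050, 1088, 1043 and 1286 TPM with tolvaptan. Again no tolvaptan library reached the dDAVP range; replicate 4 came nearest. The mean was 22.6% lower, with a log2 fold change of -0.37 (SE 0.06, limma adjusted p = 0.00335). After quantile normalization between libraries, Krt8 missed the threshold (log2 fold change -0.26, limma adjusted p = 0.0566). The table also holds a processed pseudogene, Krt8-ps, and 26.9% of the 50-base words of Krt8 transcripts occur in it, so reads between them may be divided with error. Krt8-ps was listed at 119 to 126 TPM with dDAVP alone and at 73.8 to 94.7 TPM with tolvaptan. With the TPM of both rows summed, the log2 fold change of Krt8 was -0.38 (limma adjusted p = 0.00164).

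Krt19 (ENSMUSG00000020911) is a type I keratin of ducts. Its dDAVP libraries lay close together at 1473, 1483, 1457 and 1413 TPM. With tolvaptan they held 782, 834, 809 and 1030.2 TPM, a mean 40.7% lower. The groups did not overlap, and replicate 4 was again the highest of its group. The log2 fold change was -0.76 (SE 0.08, limma adjusted p = 0.000118), ranging from -0.85 to -0.69 over 17 alternative settings, all past the threshold.

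Krt23 (ENSMUSG00000006777), a less studied type I keratin, had the largest fall of the members. It was present at 63.8, 59.3, 57.9 and 61.9 TPM with dDAVP alone and at 30.2, 32.0, 30.6 and 28.0 TPM with tolvaptan, 2.01-fold lower. The gap between the groups was wider than the range within either. Its log2 fold change was -0.99 (SE 0.05, limma adjusted p = 2.04e-06), and only 95 of the 9943 genes tested had a lower one.

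Krt20 (ENSMUSG00000035775) differed little. Its libraries held 448, 448, 438 and 393 TPM with dDAVP alone and 391, 372, 391 and 386 TPM with tolvaptan. The groups were separated only by the small gap between dDAVP replicate 4, at 393.1 TPM, and the highest tolvaptan library, at 391.1 TPM. The log2 fold change was -0.16 (SE 0.05, limma adjusted p = 0.0472). This call rested on the settings: 12 of 17 alternatives gave an adjusted p of 0.05 or more, the highest being 0.164, among them every fit without tolvaptan replicate 1, 2 or 3 or dDAVP replicate 1, 2 or 3 (up to 0.133).

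Krt7 (ENSMUSG00000023039), the other type II keratin of ducts, was not lower with tolvaptan. It stood at 547, 551, 525 and 526 TPM with dDAVP alone and at 569, 596, 567 and 706 TPM with tolvaptan. All tolvaptan libraries were higher, 3 of them by little and replicate 4 by more. The log2 fold change was 0.18 (95% interval 0.03 to 0.32, limma adjusted p = 0.102), which did not pass. Without tolvaptan replicate 4 it was 0.10 and passed (limma adjusted p = 0.0449).

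Krt80 (ENSMUSG00000037185), a type II keratin described at desmosomes and in differentiating epithelium, was scarce. It held 8.01, 8.40, 7.33 and 7.23 TPM with dDAVP alone and 9.10, 10.1, 9.88 and 12.1 TPM with tolvaptan. The groups were close but did not overlap. Because Krt80 passed the filter only through 2 tolvaptan libraries, its values under that filter are no support for a rise. In the fit of every gene above 0 its limma adjusted p was 0.0913. The log2 fold change in the main fit was 0.37 (95% interval 0.12 to 0.61), and its adjusted p of 0.051 from limma did not pass. Of 17 alternatives 4 put it under 0.05 (lowest adjusted p = 0.0266 with no variance trend, and 0.0431 without tolvaptan replicate 1). An antisense gene model, Gm35853, holds 3.88% of the 50-base words of Krt80 transcripts on the opposite strand. It was listed at 2.27 to 4.42 TPM, and because the library kit does not mark strand, part of the reads cannot be assigned between them.

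**Figure D2:**
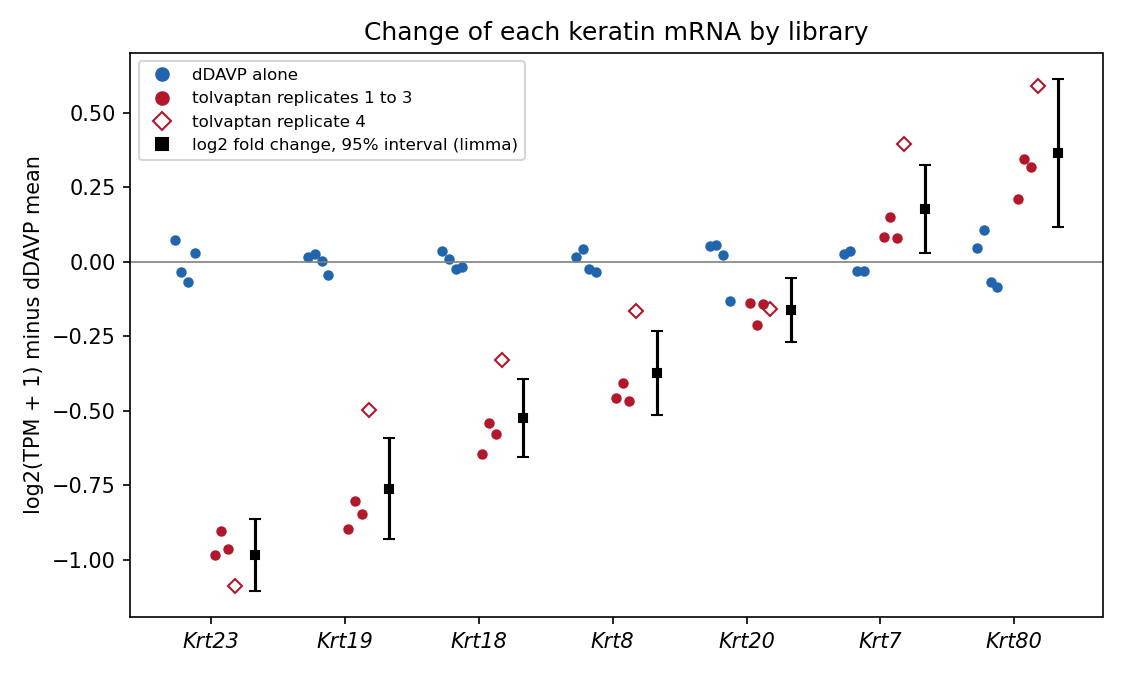
Difference of each library from the mean of the dDAVP libraries on the log2(TPM + 1) scale (y axis) for the 7 members past the filter (x axis, ordered by change), with dDAVP libraries in blue, tolvaptan replicates 1 to 3 as red dots, tolvaptan replicate 4 as a diamond, and the limma log2 fold change with its 95% interval in black. The changes run from -0.99 for Krt23 to 0.37 for Krt80, and replicate 4 lies above the other tolvaptan libraries for Krt19, Krt18, Krt8, Krt7 and Krt80 but not for Krt23 and Krt20.

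The 3 members of basal and stratified epithelia were at or near 0 in both groups. Krt5, the type II keratin of basal cells, was listed at 0 to 0.1 TPM, and its partner Krt14 was listed at 0 in 5 of 8 libraries and reached 0.150 TPM at most. Krt17, which is induced in wounded epidermis, held 0.160 to 0.460 TPM. In the fit of every gene above 0, where 1.06% of genes fell and 1.25% rose (2.31% together), none of the 3 passed (adjusted p from 0.795 to 0.946 from limma, unadjusted p of 0.606 or more). Trp63, the transcription factor that maintains basal epithelial cells, was also under 1 TPM in every library.

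Tolvaptan replicate 4 held more of several keratin mRNAs than the other tolvaptan libraries. It was the highest or lowest of its group for 74.7% of all genes tested, so standing apart there was not particular to keratins. Relative to the mean of the other tolvaptan libraries it held 22.4% more Krt7, 21.3% more Krt8, 19.5% more Krt18, 27.5% more Krt19 and 25.1% more Krt80. Krt20 was within 0.395% of that mean, and Krt23 was 9.49% below it. The same library held 35.7% more Aqp2 and 11.7% more of the receptor mRNA Avpr2. Without it, the log2 fold changes of Krt19, Krt18 and Krt8 were -0.85, -0.59 and -0.44. What set this library apart was not tested.

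Some ratios between members varied little within a group. The ratio of Krt7 to Krt8, the type II keratins of the duct, was 0.370 to 0.375 in the 4 libraries with dDAVP alone and 0.542 to 0.549 in the 4 with tolvaptan. Replicate 4, in which both genes were raised, had a ratio of 0.549, beside 0.542 to 0.547 in the other tolvaptan libraries. Krt7 thus made up 26.9% to 27.2% of type II keratin TPM in the dDAVP libraries and 34.9% to 35.2% in the tolvaptan libraries. The ratio of Krt18 to Krt8 was 3.41 to 3.54 with dDAVP alone and 3.07 to 3.24 with tolvaptan. Krt19 to Krt18 was 0.284 to 0.294 and 0.240 to 0.257, respectively. Krt20 and Krt23 varied more as shares than as levels with tolvaptan: Krt20 was 5.74% to 6.35% of type I TPM in the dDAVP libraries and 7.09% to 8.83% in the tolvaptan libraries, and Krt23 was 0.838% to 0.904% and 0.513% to 0.681%. None of these ranges overlapped between the groups. The ratios and shares are given as descriptions, with no test.

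Summed over the members, the type I total was lower by a larger share than the type II total, as described by the sums alone. The 6 type I genes held 7145, 7056, 6908 and 6846 TPM with dDAVP alone and 4428, 4698, 4608 and 5451 TPM with tolvaptan, a mean 31.4% lower and with no overlap. The 4 type II genes held 2012, 2045, 1951 and 1941 TPM with dDAVP alone and 1627, 1694, 1620 and 2005 TPM with tolvaptan. The mean was 12.6% lower. Here the groups overlapped, because tolvaptan replicate 4 lay within the dDAVP range. The ratio of type I to type II was 3.52 ± 0.0458 with dDAVP alone and 2.76 ± 0.0589 with tolvaptan (SD, n = 4 each), and replicate 4, at 2.72, did not stand apart. Together the members made up 0.879% to 0.916% of all TPM in the dDAVP libraries and 0.606% to 0.746% in the tolvaptan libraries. In both groups the type I total exceeded the type II total in mRNA.

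**Figure D3:**
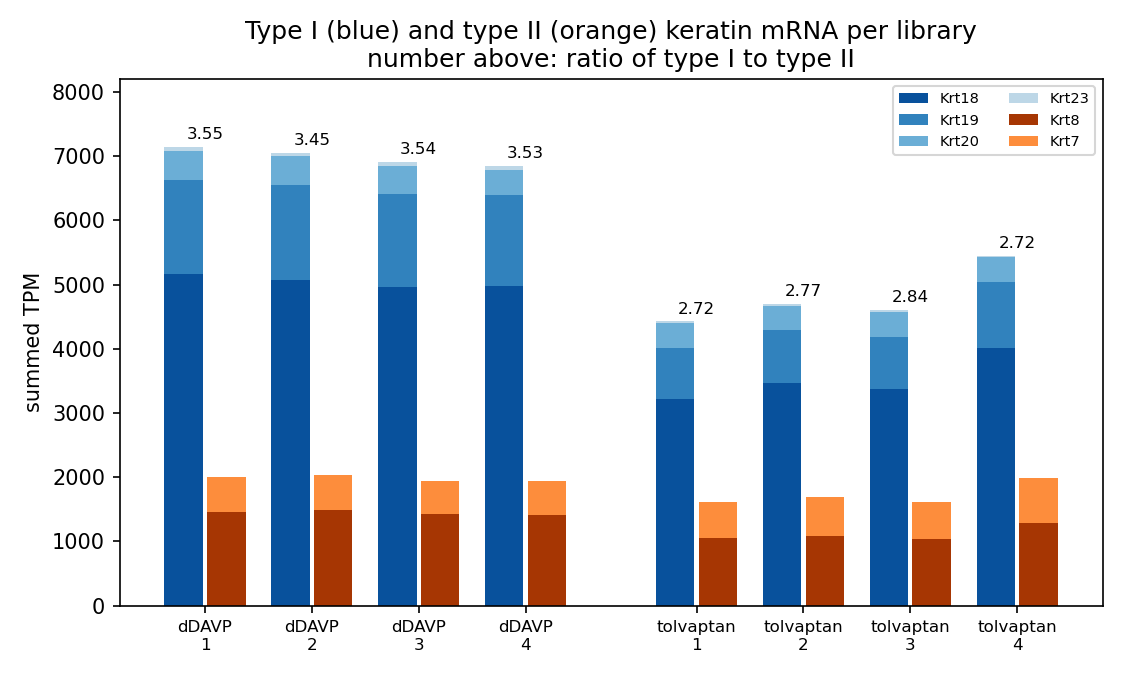
Summed TPM of the type I keratins Krt18, Krt19, Krt20 and Krt23 (blue stack) and the type II keratins Krt8 and Krt7 (orange stack) in each library, the other 4 members being too low to draw. The number above each pair is the ratio of all type I to all type II members, which lies between 3.45 and 3.55 with dDAVP alone and between 2.72 and 2.84 with tolvaptan.

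Along the type II cluster, the members past the filter lay at opposite ends. Those at one end were higher but not called, and those at the other fell. With so few genes this order is a description only, and a link between position and change was not tested. In the RefSeq annotation of GRCm38.p6, used only for gene order, Krt80 and Krt7 are neighbours at one end of the cluster on chromosome 15 and Krt8 is at the other end. Next to it lies Krt18, the only type I keratin outside the cluster on chromosome 11. Between Krt7 and Krt8 lie 23 coding genes, 22 of them keratins, and none exceeded 0.900 TPM (Krt79) in any library. Krt80 and Krt7 at one end had log2 fold changes of 0.37 and 0.18, and Krt8 and Krt18 at the other had -0.37 and -0.52. Eif4b, a translation initiation factor gene and the next coding gene beyond Krt18, stood at 99.7 TPM in both groups with a log2 fold change of 0.00 (limma adjusted p = 1.00). On chromosome 11, Krt20 and Krt23 are neighbours with log2 fold changes of -0.16 and -0.99. They are separated from Krt19 by 49 coding genes of which none exceeded 0.320 TPM (Krt15).

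**Figure D4:**
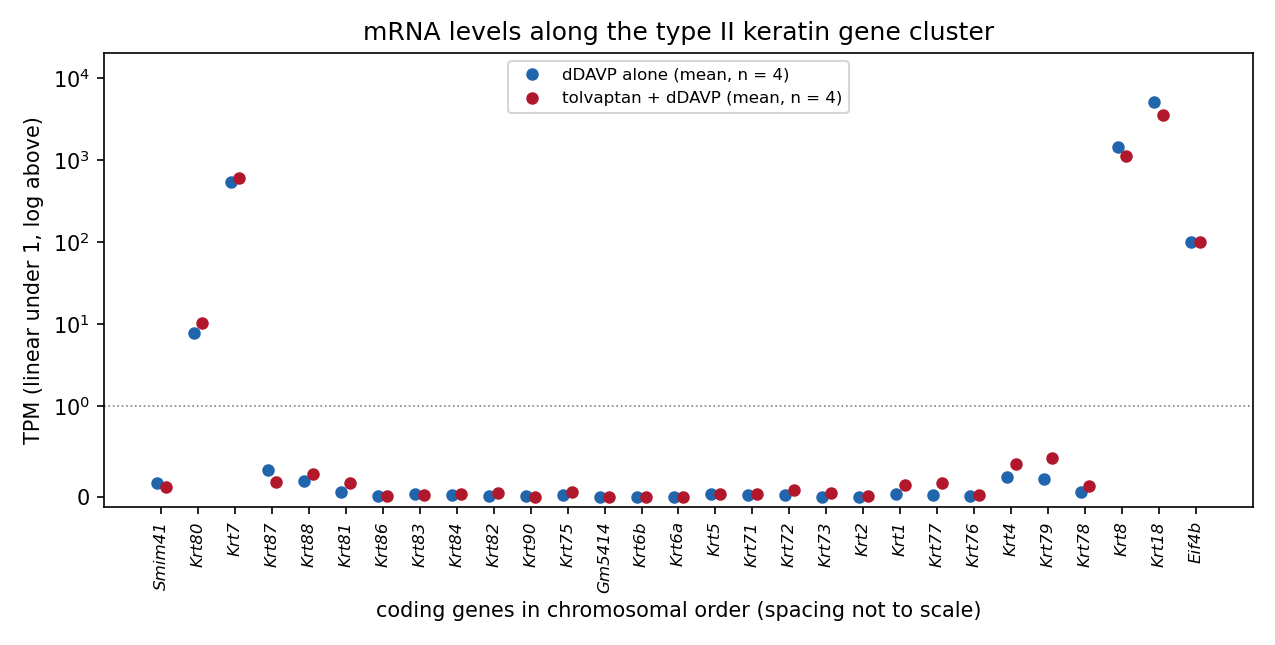
Mean TPM (y axis, linear under 1 and logarithmic above) of the coding genes along the type II keratin cluster in chromosomal order (x axis, spacing not to scale), with dDAVP alone in blue and tolvaptan plus dDAVP in red (n = 4 each). Only Krt80 and Krt7 on the left and Krt8, Krt18 and Eif4b on the right exceed 1 TPM.

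The 250 bases before the start of 4 of these genes are shown because Krt8 and Krt18 are neighbours that were lower together, Krt7 lies in the same cluster and was not lower, and Krt23 changed most. The RefSeq promoter table (GRCm38.p6) matched 7 of the 10 members. Capitals mark any of 5 motifs, searched on both strands. The cAMP response element half-site was searched as TGACG. The AP-1 site was searched as TGANTCA. The GC box was searched as GGGCGG. The CCAAT box is spelled by its name. The TATA box was searched as TATAAA.
Krt18 (chr15:102027966-102028215, + strand): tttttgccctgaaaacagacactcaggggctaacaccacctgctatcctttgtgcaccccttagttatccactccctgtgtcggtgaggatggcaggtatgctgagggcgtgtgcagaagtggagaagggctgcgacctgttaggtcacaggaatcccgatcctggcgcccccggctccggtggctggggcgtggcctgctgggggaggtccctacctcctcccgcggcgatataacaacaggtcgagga
Krt8 (chr15:102004343-102004592, - strand): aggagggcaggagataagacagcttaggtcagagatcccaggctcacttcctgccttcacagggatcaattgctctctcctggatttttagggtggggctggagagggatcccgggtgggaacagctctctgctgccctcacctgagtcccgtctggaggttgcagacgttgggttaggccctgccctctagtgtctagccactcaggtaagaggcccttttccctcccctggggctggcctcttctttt
Krt7 (chr15:101412153-101412402, + strand): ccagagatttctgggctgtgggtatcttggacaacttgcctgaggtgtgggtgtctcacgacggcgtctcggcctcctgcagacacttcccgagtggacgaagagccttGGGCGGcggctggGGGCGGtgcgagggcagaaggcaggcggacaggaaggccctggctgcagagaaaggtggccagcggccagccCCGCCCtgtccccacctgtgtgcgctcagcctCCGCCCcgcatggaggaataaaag
Krt23 (chr11:99493121-99493370, - strand): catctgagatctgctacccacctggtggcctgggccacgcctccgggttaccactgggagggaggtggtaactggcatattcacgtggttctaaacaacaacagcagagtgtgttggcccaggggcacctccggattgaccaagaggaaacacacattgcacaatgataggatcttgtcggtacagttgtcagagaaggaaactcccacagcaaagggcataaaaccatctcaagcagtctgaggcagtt
The Krt7 window holds 4 GC boxes, 2 on each strand, at 141, 128, 56 and 24 bases before the start counted to their outer base. In windows of the same length before 32851 annotated starts, 32.7% held at least 1 GC box. The windows of Krt18, Krt8 and Krt23 hold none of the 5 motifs. Over all starts, 17.8% held the TGACG half-site, 6.75% the AP-1 site, 33.8% CCAAT and 12.4% the TATA box. Of the other members matched, Krt20 has a TATA box 29 bases before its start and Krt5 a TGACG at 239 bases. Guanine and cytosine made up 60.4% of the Krt18 window, 58.0% of Krt8, 66.0% of Krt7 and 52.8% of Krt23, beside a median of 52.4% over all starts. The matches are descriptions of these letters only.

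The rest of the keratin family was nearly silent. The table lists 45 further genes by a Krt symbol, of which 43 stayed under 1 TPM in every library and 3 of these were listed at 0 in all. The other two were Krt8-ps and Krt10. Krt8-ps fell, with a log2 fold change of -0.53 (SE 0.07, limma adjusted p = 0.000662), and its TPM amounted to 5.74% to 9.08% of that of Krt8. Krt10, a type I keratin of suprabasal epidermis, held 14.2 to 20.1 TPM with dDAVP alone and 15.5 to 22.4 TPM with tolvaptan, and did not pass (0.15, limma adjusted p = 0.459). The type II keratin genes of suprabasal epidermis (Krt1) and of internal stratified epithelium (Krt4) did not exceed 0.310 and 0.430 TPM.

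None of the tested genes for desmosomes, hemidesmosomes or cytolinkers fell, a call made for 6.1% of all genes tested. With 8 genes tested per list, 0 falls lie near that share. Dsp, which encodes desmoplakin, the linker between keratin filaments and desmosomes, stood at 68.0, 64.5, 63.4 and 57.8 TPM with dDAVP alone and at 93.5, 95.4, 92.8 and 90.1 TPM with tolvaptan. Every tolvaptan library was higher, with a log2 fold change of 0.55 (SE 0.05, limma adjusted p = 0.000108). The desmosomal cadherin Dsc2 also rose, by 0.35 (limma adjusted p = 0.0169; 0.0509 without dDAVP replicate 1 and 0.0666 with no filter). Of 13 desmosomal genes listed, 8 were tested, these 2 rose and none fell, where 10% of all genes tested rose. Their median log2 fold change was 0.07, beside 0.05 over all genes. Jup (plakoglobin), the plakophilin Pkp3 and the cadherin Dsg2 had log2 fold changes of 0.00, 0.04 and 0.09.

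Among hemidesmosome and cytolinker genes, 8 of 10 were tested and 2 rose, beside 10% of all genes tested. Evpl, which encodes the plakin envoplakin, had a log2 fold change of 0.38 (limma adjusted p = 0.0158), and Dst, which encodes the plakin dystonin, had one of 0.32 (limma adjusted p = 0.0398). Evpl missed the threshold without tolvaptan replicate 2 or dDAVP replicate 4 and with replicate number as a block (adjusted p up to 0.061), and Dst missed it in 9 of 17 alternatives, 6 of them leaving out 1 library (tolvaptan replicate 1, 2 or 3 or dDAVP replicate 2, 3 or 4, adjusted p up to 0.11) and the others no filter, common median and quantile normalization (up to 0.124). Plec (plectin) had a log2 fold change of 0.20 with overlapping groups (limma adjusted p = 0.273). The integrin subunits Itga6 and Itgb4 had log2 fold changes of 0.04 and 0.08, and neither passed.

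Other intermediate filament genes gave little signal, with 4 of 15 past the filter. Vim (vimentin), the filament gene of mesenchymal cells, was listed at 0 to 0.120 TPM in all 8 libraries. Nes (nestin) was at 17.6 ± 1.75 TPM with dDAVP alone and 22.9 ± 0.913 TPM with tolvaptan (SD over 4 libraries), and rose by 0.36 on the log2 scale (limma adjusted p = 0.0108). The lamin gene Lmna had a log2 fold change of -0.13 with overlapping groups, since tolvaptan replicate 4 held 420 TPM and the other tolvaptan libraries 279 to 304, against 343 to 362 TPM with dDAVP alone. Without that replicate, Lmna fell by 0.26 on the log2 scale (limma adjusted p = 0.00133). Lmnb1 and Lmnb2 were at 0.21 and 0.15 and did not pass.

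Of 19 transcription factors of epithelial identity, 13 were tested, 3 fell and 1 rose, beside 6.1% and 10% of all genes tested. Elf3, an ETS factor of simple epithelia, was at 407 ± 5.51 TPM with dDAVP alone and 337 ± 13.1 TPM with tolvaptan (SD over 4 libraries), and fell by 0.27 on the log2 scale (limma adjusted p = 0.0014). Grhl1, a grainyhead-like factor, had a log2 fold change of -0.31 (limma adjusted p = 0.00416) and the ETS factor Ehf one of -0.16 (limma adjusted p = 0.0184). Ehf missed the threshold in 6 of 17 alternatives (adjusted p up to 0.0796): quantile normalization, replicate block and the fits without tolvaptan replicate 2 or dDAVP replicate 1, 2 or 3. Pax8, a factor of the developing nephron and duct, rose by 0.16 (limma adjusted p = 0.0229), a call lost in 5 of 8 fits without 1 library (without tolvaptan replicate 3 or any single dDAVP library, adjusted p up to 0.071). Centring the libraries on 1 median, no filter and replicate block ended it too (up to 0.0808). With the libraries centred on a common median Tfap2a fell too, and without tolvaptan replicate 4 Tfap2a and Gata3 fell and Tfcp2l1 rose. Grhl2 and Klf5 had log2 fold changes of -0.02 and -0.03.

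**Figure D5:**
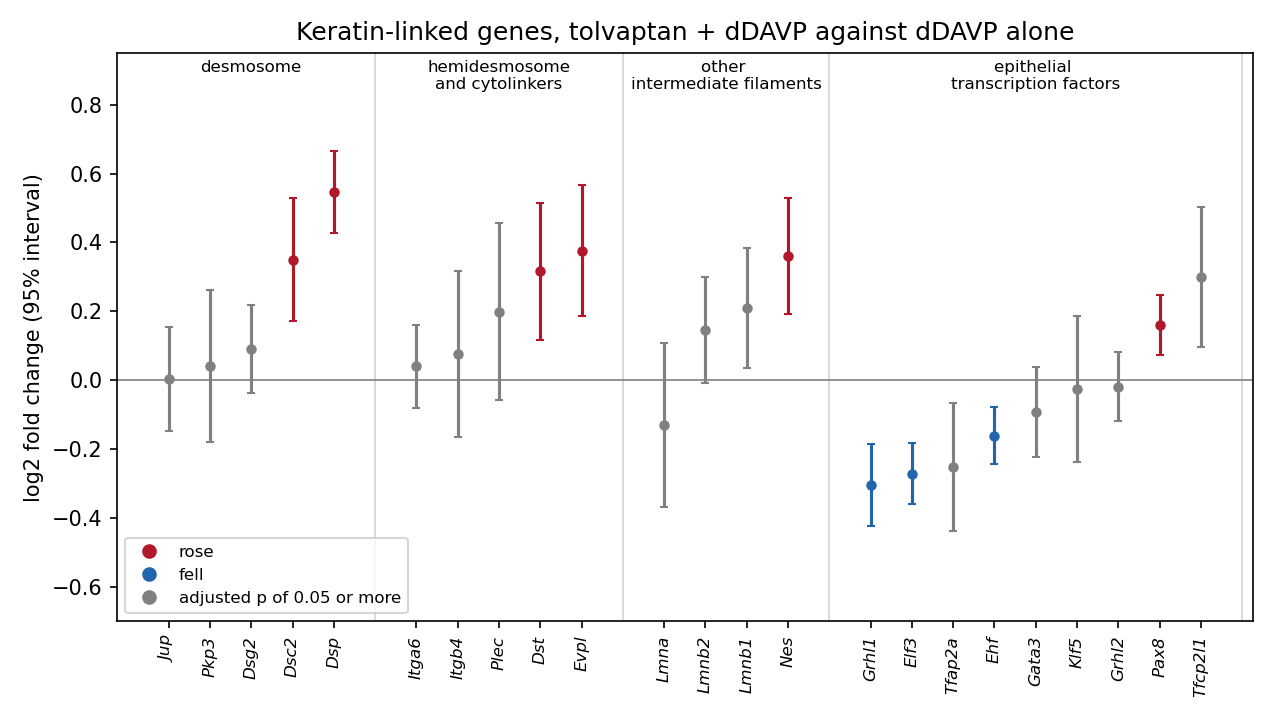
Log2 fold changes with 95% intervals (y axis) of the genes named in the text from 4 keratin-linked lists (x axis), tolvaptan plus dDAVP against dDAVP alone (n = 4 each), with genes that rose in red, genes that fell in blue and the others in grey. Dsp, at 0.55, stands highest and Grhl1, at -0.31, lowest.

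Most markers of principal cells, the cell type that the line models, were present. Of 13 listed, 11 exceeded 1 TPM and 9 exceeded 10 TPM in at least 1 library. The sodium channel subunit Scnn1b and the transcription factor Elf5 stayed under 1 TPM. Aqp4 was at 1.08 to 1.46 TPM with dDAVP alone and at 0.32 to 0.96 TPM with tolvaptan. The list summed to 4146 to 4639 TPM with dDAVP alone and 1440 to 1663 TPM with tolvaptan. Most of that difference was Aqp2, with means of 3050 and 272 TPM. Of 9 principal cell genes tested, 4 fell (Aqp2, Avpr2, Fxyd4 and Hoxb7) and 2 rose, the sodium channel subunits Scnn1a and Scnn1g, by 0.62 and 0.42 on the log2 scale. Over all genes tested, 6.1% fell and 10% rose. The urothelial markers, of interest beside Krt20, summed to 537 to 588 TPM with dDAVP alone and 543 to 680 TPM with tolvaptan, most of it from the uroplakin Upk1a (means of 439 and 447 TPM), followed by Upk3b (80.3 and 105 TPM) and Psca (35.7 and 37.7 TPM), and of the 3 of 6 that were tested Upk3b rose (0.39, limma adjusted p = 0.000446). Upk1b, Upk2 and Upk3a reached 2.52, 3.06 and 1.28 TPM at most. Of 13 mesenchymal markers, 12 stayed under 1 TPM, with Twist1 at up to 4.00 TPM, and of 7 immune and endothelial markers 6 did, with Cd68 at up to 6.85 TPM. The basal and squamous list summed to 29.4 to 36.1 and 31.4 to 34.5 TPM. Of its 13 genes 3 exceeded 1 TPM, namely Krt10, Sprr1a (means of 12.3 and 11.3 TPM) and Ivl (1.7 and 1.1 TPM). Among intercalated cell markers 2 of 8 exceeded 1 TPM, Atp6v1b1 (means of 53.9 and 67.4 TPM) and Aqp6 (4.70 and 2.08 TPM). That list summed to 47.5 to 77.4 and 48.3 to 79.5 TPM, most of it Atp6v1b1, and Foxi1 and Slc4a1 were under 1 TPM. Of 9 markers of other nephron segments, only Lrp2 (megalin) exceeded 1 TPM, and the list summed to 8.49 to 9.18 and 11.4 to 12.8 TPM. Their part in the keratin changes was not tested.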

How the data were processed

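RNA of 8 mpkCCD samples was sequenced by the authors, who mapped the reads to the mouse Ensembl genome using STAR and obtained TPM from RSEM. Tool versions are not given in the sources used here. The deposited table holds 1 TPM value per gene and library, and each library sums to 1000000, so depth is unknown and no count test was run. Columns were matched to samples by group and replicate number.

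TPM were used as deposited. Genes with a maximum TPM over 10 (9943) were compared on log2(TPM + 1) by limma 3.58.1 in R 4.3.3 (trend on mean expression, 2-sided, unpaired) with Benjamini-Hochberg adjustment. The scale understates changes of genes with few TPM. Members under the filter were read from the same fit over 39780 genes above 0. The fit was tested on simulated data in which 200 of 9943 genes were changed. At log2 changes of 0.4, 0.8 and 1.5 it recovered 61%, 93.5% and 98.5% of them. Of the genes called, 3.94%, 8.33% and 4.83% were false. Changes near 0.4 were often missed in the simulation. Its noise was independent between genes, and 1601 genes were called in the data, more than the 200 changed there. These shares therefore need not hold for the data.

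The members, gene lists and alternatives were chosen with earlier results of these data known. Named were all members, every other keratin past the filter, up to 4 genes per keratin-linked list by smallest p, a set of core genes (Dsp, Jup, Pkp3, Dsg2, Dsc2, Plec, Vim, Lmna, Cdh1) whatever their p, Aqp2 and Avpr2, and defining markers. Not every gene so covered is named, and some listed genes are not reported here. Chosen after values were seen: Eif4b, Gm35853, Klf5, Grhl2, Tfap2a, Gata3, Tfcp2l1, Ywhaz, Bag1, Ctnna1, Ocln, Cldn4, Fxyd4, Hoxb7, Scnn1a, Scnn1g, Psca, Itga6, Itgb4, Hspa8, Dnajb6, Cdh16, Twist1, Cd68, Krt1, Krt4, Krt15, Krt79, Upk1b, Upk2, Upk3a, Atp6v1b1, Aqp4, Aqp6, Sprr1a and Ivl. Shared 50-base words were counted in GENCODE M21 transcripts, which are of an earlier build than the authors' annotation and were joined by stable ID. Alternatives were pseudocounts of 0.1 and 5, filters of 1 TPM and none, common median, quantile normalization, no variance trend, replicate block, group mean ratios, each library left out, and, chosen after seeing the data, Krt8 and Krt8-ps summed.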

Additional observations from a re-analysis of the deposited data

Results flagged for a closer look

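In groups of 4 libraries, the gap between the most distant library and the next was compared with the range of the group for the members, Krt8-ps, Krt10 and the sums and ratios. Of 32 groups examined, 2 stood out, and chance gives about 1 in 20. Both are at levels near 0. Krt14 was at 0.15 TPM in dDAVP replicate 4 and at 0 in the other dDAVP libraries. Krt17 was at 0.46 TPM in dDAVP replicate 3 and at 0.16 to 0.17 TPM in the others.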

How the results depend on the processing

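Krt23, Krt19 and Krt18 fell under all 17 alternatives, with log2 fold changes of -1.03 to -0.90, -0.85 to -0.69 and -0.59 to -0.35, and Krt8 under 16. Among these settings, summing Krt8 and Krt8-ps left the values of the other members unchanged. The other filters could change only p-values, not log2 fold changes. The number of members that fell was 5, and 3 after quantile normalization, where Krt8 and Krt20 were lost. Leaving out 1 library gave 4 to 5. Rises among them numbered 0, and 1 with a pseudocount of 0.1, with the filter of 1 TPM and without a variance trend (Krt80 each time). Leaving out 1 library gave 0 to 1 (Krt80 without tolvaptan replicate 1, Krt7 without tolvaptan replicate 4). Over all genes, 607 fell and 994 rose. The rises numbered 498 with no filter, 576 with a common median (825 falls) and 612 after quantile normalization (680 falls), and with 1 library left out falls ran from 413 to 859 and rises from 463 to 1495. Over the 6 keratin-linked lists, 4 fell and 10 rose. With a common median 9 fell and 6 rose, with no filter 5 rose, and with 1 library left out 3 to 9 fell and 5 to 13 rose. The cause of these shifts was not tested. Pools over every Krt gene, which add Krt8-ps to type II, gave type I to type II ratios of 3.32 with dDAVP alone and 2.64 with tolvaptan. With 1 library left out, the ratio over the members was 3.51 to 3.54 and 2.74 to 2.78.

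Samples with the same replicate number did not deviate together (correlations of -0.073 to -0.00463 over 4 pairs), and 0 of the 4 dDAVP libraries correlated best with its own number. With replicate number as a block, 396 genes fell and 515 rose, and 4 members fell, Krt20 being lost. The depth of the libraries is unknown, and levels under 1 TPM allow no statement on change.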

Other observations

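Of 20 genes listed whose products bind, crosslink or cleave keratins, 17 were tested, 1 fell, 3 rose and 13 did not pass, with a median log2 fold change of 0.08. Over all genes tested, 6.1% fell and 10% rose. Tgm2, a transglutaminase, held 18.1 to 19.96 TPM with dDAVP alone and 8.35 to 10.96 TPM with tolvaptan, a log2 fold change of -0.91 (limma adjusted p = 0.000195). Its relative Tgm1, which crosslinks the cornified envelope, rose by 0.45 (limma adjusted p = 0.0107), having passed the filter in 1 of 4 dDAVP libraries. The small heat shock protein Hspb1 was at 23.3 ± 1.35 and 30.7 ± 2.80 TPM (SD over 4 libraries) and rose (limma adjusted p = 0.00664). Casp6, a caspase that can cleave keratin 18, had a log2 fold change of 0.23 (limma adjusted p = 0.0413), lost in 11 of 17 alternatives (adjusted p up to 0.143), among them the filter of 1 TPM, no filter, common median, quantile normalization, no variance trend and every fit without 1 library except those without tolvaptan replicate 1 or 4. With a common median Ywhaz and Bag1 fell too, and without tolvaptan replicate 4 Bag1 fell. Hspa8 and Dnajb6, a chaperone of keratin 18, had log2 fold changes of -0.02 and -0.07.

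Of 10 epithelial adhesion genes, all were tested and 1 rose, beside 10% of all genes tested. It was Epcam, by 0.15 on the log2 scale (limma adjusted p = 0.0329). This call was lost in 11 of 17 alternatives (adjusted p up to 0.136), namely no filter, common median, no variance trend, replicate block and every fit without 1 library except that without tolvaptan replicate 4. The tight junction gene Cldn4 had the largest log2 fold change of the list, 0.48, and did not pass (limma adjusted p = 0.0917), with tolvaptan replicate 2 at 48.1 TPM and the other tolvaptan libraries at 82.3 to 90.9 TPM. Without that replicate it rose by 0.68 (limma adjusted p = 0.00109). With a common median Ctnna1 fell, and without tolvaptan replicate 4 Ocln rose. The cadherins Cdh1 and Cdh16 had log2 fold changes of -0.02 and 0.09.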
